A study of Mus musculus with 53 samples.

Results

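Genes that write, read or remove DNA methylation were followed in single embryonic precursors of blood stem cells, 10 in all: Dnmt1, Uhrf1, Dnmt3a, Dnmt3b, Mbd2, Mbd3, Tet1, Tet2, Tet3 and Tdg. They were chosen by gene symbol, with earlier results of these data known, although no expression value entered the rule. All 10 of 10 were found among the 14833 genes of the deposited table. The cells were T1 pre-HSCs, an early precursor of haematopoietic stem cells (HSCs), taken by cell sorting from mouse embryos at E11, out of the aorta-gonad-mesonephros region, and each library held the RNA of 1 cell. The 12 KO cells, numbered 1 to 12, carried the genotype mH19 delta_DMR/+, in which the differentially methylated region of the imprinted H19 locus is deleted. The controls, numbered 13 to 22 and called wildtype in the labels, carried mH19 flDMR/+, so they hold a modified allele of the same region rather than an unmodified locus. The sources used here do not give the agent that removes the region, the cells in which it acts, the strain or the number of embryos.

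DNA methylation in mammals is set on cytosines that precede guanine (CpG). Dnmt1 copies it to the new strand after replication, guided by Uhrf1, which binds hemimethylated DNA. Dnmt3a and Dnmt3b place it on unmethylated sites. Mbd2 and Mbd3 are related members of the methyl-CpG binding domain family and each form part of a NuRD chromatin remodelling complex, although mouse Mbd3 itself binds methylated DNA poorly. Tet1, Tet2 and Tet3 oxidise methylated cytosine, and Tdg excises the oxidised products so that base excision repair can restore cytosine. In adult blood formation Dnmt3a and Tet2 are best known as regulators of stem cell self-renewal, and imprinted loci such as H19 depend on Dnmt1 to keep their methylation.

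The promoter sequences of the members show how unlike their CpG content is, and they mark the starts that a value per gene adds together. RefSeq sequences of 300 bases, from 250 before to 50 after a transcript start, were at hand for 9 of the 10 members, with 14 starts in all (build GRCm38.p6). The number of CpG ran from 2 at the outermost start of Dnmt1 to 57 at Tet2, and 13 of the 14 windows held more than the median of 7 over all 32851 promoters of that length. Windows at inner starts of Dnmt1, not printed below, had 12 and 33 CpG, and 8.56% of all promoters had at least 33. The outermost window thus does not stand for every Dnmt1 start. Each run shown has 150 bases upstream of the start, on the strand of the gene, with every CpG in capitals. It ends just before the start, except for Dnmt3b and Tdg, where it ends 38 and 24 bases earlier, before the first annotated base of the gene. The letters GCGGGAA, a common form of the site of the cell cycle factor E2F, or TTCCCGC on the other strand, occurred in 4.60% of all promoters and in 1 of the 14, that of Uhrf1, 48 bases before its outermost start. No match says only that these letters are not in the window.

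Dnmt1, chr9:20959889-20960038, minus strand: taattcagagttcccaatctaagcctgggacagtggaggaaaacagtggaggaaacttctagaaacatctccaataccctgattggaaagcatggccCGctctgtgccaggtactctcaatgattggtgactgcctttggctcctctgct

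Uhrf1, chr17:56303187-56303336, plus strand: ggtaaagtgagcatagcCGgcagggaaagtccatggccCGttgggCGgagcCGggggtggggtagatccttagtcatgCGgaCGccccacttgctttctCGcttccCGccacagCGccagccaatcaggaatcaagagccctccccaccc

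Dnmt3a, chr12:3806830-3806979, plus strand: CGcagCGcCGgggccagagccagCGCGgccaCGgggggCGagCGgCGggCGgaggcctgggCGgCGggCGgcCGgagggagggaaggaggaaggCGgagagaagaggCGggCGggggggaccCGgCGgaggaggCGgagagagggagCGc

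Dnmt3a, inner start, chr12:3891594-3891743, plus strand: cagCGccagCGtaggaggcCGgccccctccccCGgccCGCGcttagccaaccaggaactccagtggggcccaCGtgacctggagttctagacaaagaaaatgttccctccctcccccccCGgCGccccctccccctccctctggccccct

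Dnmt3b, chr2:153649261-153649410, plus strand: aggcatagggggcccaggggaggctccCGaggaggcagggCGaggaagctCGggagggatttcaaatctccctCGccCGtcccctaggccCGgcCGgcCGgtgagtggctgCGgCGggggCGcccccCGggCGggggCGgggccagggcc

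Mbd3, chr10:80399532-80399681, minus strand: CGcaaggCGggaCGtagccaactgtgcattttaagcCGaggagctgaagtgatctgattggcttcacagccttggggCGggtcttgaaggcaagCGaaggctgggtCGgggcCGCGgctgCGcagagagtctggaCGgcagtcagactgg

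Tdg, chr10:82629664-82629813, plus strand: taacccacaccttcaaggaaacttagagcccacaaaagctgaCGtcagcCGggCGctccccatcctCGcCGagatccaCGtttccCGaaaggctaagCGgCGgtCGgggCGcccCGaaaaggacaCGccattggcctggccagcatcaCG

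The outer Dnmt3a window had 46 CpG in its 300 bases, and 1.65% of all promoters had as many or more, whereas the window of the inner start had 18. Another window, between these starts and close to the outer one, had 47 CpG. The table gives 1 Dnmt3a value per cell, so it does not show which start was used. Dnmt3b had 30 CpG, Tdg 26 and Mbd3 22.

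The values are RPKM, reads scaled by transcript length and by the mapped reads of the cell, so levels of different genes can be compared per length. Sequencing depth was unknown, and a gene counted as detected in a cell at 1 RPKM or more. The number of detected genes ran from 1517 to 8408 in KO and from 2067 to 5716 in wildtype cells. Wildtype cell 19 was not used, because around all 10 members its column did not line up with the gene rows, which leaves 9 wildtype cells. In the other 21 cells the best match lay at the right row in all 210 combinations of cell and member. An exact 0 can be a failed estimate: of 9 housekeeping genes, picked after the values were seen, 7 were listed at 0 in at least 1 cell. For that reason the values of each member are given per cell, and every mean given beside them includes such zeros. The labels tie no cell to an embryo, litter or sort. Each genotype therefore counts as 1 sample, no test between genotypes was possible, and intervals cover counting error of cells only.

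H19 separated the genotypes: KO cells spanned 0 to 186 RPKM and wildtype cells 231 to 1261 RPKM. All 10 pre-HSC and endothelial markers reached 1 RPKM in some cells of both genotypes. The best detected was Procr, in 9 KO cells of 12 and 8 wildtype cells of 9, and the least Cd34, in 3 and 1. Their summed level had medians of 421 RPKM in the KO group and 333 RPKM in the other. For 5 haematopoietic surface and related genes these medians were 2.83 and 64.8 RPKM, with Coro1a at 1.08 and 49.1 RPKM. Ptprc of that list, which encodes CD45, a surface protein that T1 pre-HSCs are known to lack, was detected in 1 cell of each genotype. Markers of other cell types were present in part of the cells. The summed level of 3 listed macrophage genes of 6 looked for ran from 0 to 700 RPKM in KO cells and from 0.00168 to 1951 RPKM in wildtype cells, with medians of 10.0 and 71.7 RPKM and Cd68 at 0 in all wildtype cells. In wildtype cells only 1 of these 3 genes ever reached 1 RPKM, so that sum reflects 1 gene, whereas in KO cells all 3 did. All 7 mesenchymal genes were listed, with sums of 0.00364 to 606 RPKM (KO) and 0 to 180 RPKM (wildtype). Of 8 erythroid genes 4 were listed, with a highest sum of 110 RPKM among KO and 30.4 RPKM among wildtype cells, and Hbb-bs was at 0 in all KO cells and Hba-a1, Hbb-y and Klf1 in all wildtype cells. The part of these cell types in the differences below was not tested.

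Most members were detected in a minority of cells, and which ones were present changed from cell to cell. Dnmt3a was found in 15 of 21 cells, Mbd3 in 14 and Tdg in 13. Uhrf1 was found in 9, Tet2 in 8, and Dnmt1 and Dnmt3b in 7 each. Tet1 was found in 4 cells and Mbd2 and Tet3 in 2 each. The exact Clopper-Pearson 95% interval for Dnmt3a, 47.8 to 88.7%, overlaps that of every gene down to Tet2, at 18.1 to 61.6%, and that of Dnmt1 and Dnmt3b, at 14.6 to 57.0%, but not that of Tet1, at 5.45 to 41.9%. The order by mean level differed between the genotypes below the first 2 places. In wildtype cells Dnmt3a led at 288 RPKM, then came Mbd3 at 148 RPKM and Tdg at 52.1 RPKM. In KO cells the order was Dnmt3a at 79.9 RPKM, Mbd3 at 40.1 RPKM, Mbd2 at 26.6 RPKM, Uhrf1 at 16.5 RPKM, Dnmt3b at 6.57 RPKM and Dnmt1 at 5.70 RPKM, with Tdg at 4.88 RPKM after them. Single cells weigh heavily in such means: KO cell 10 held 98.8% of all Mbd2 signal, and 1 cell held 51.8 to 53.1% of the signal of each of Tet1, Tet2 and Tet3.

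**Figure D1:**
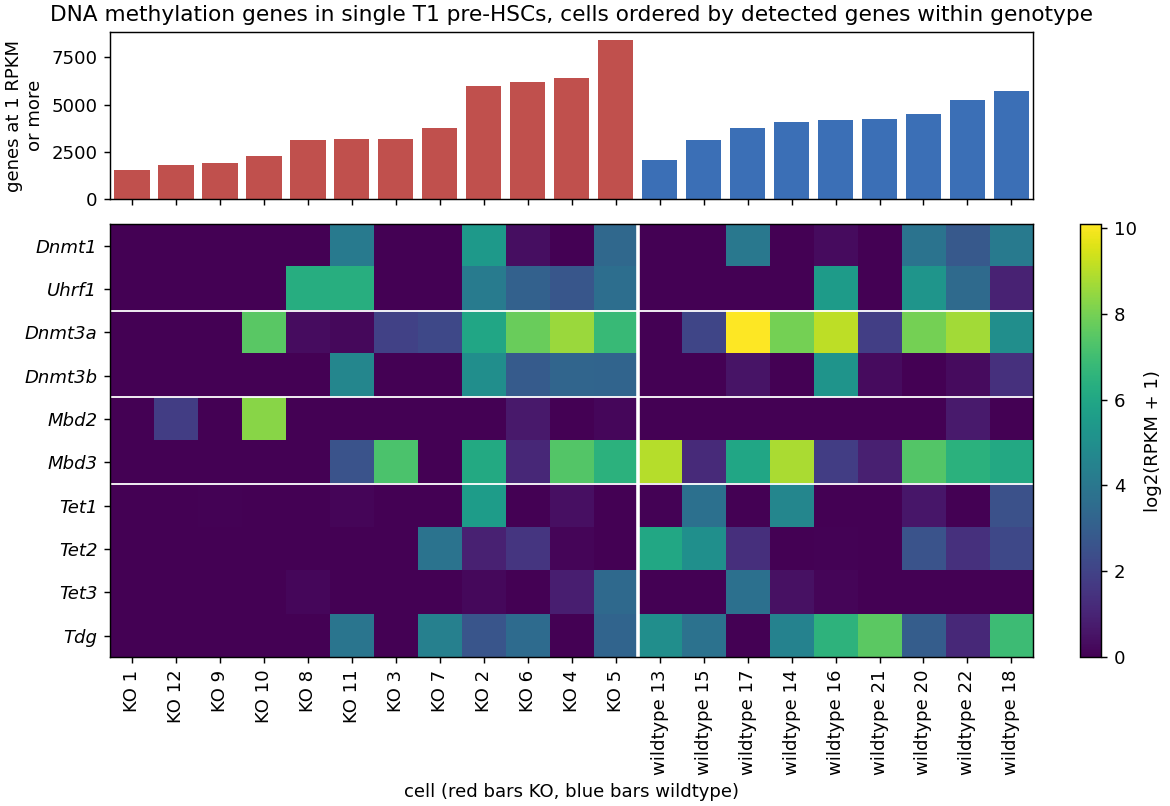
The upper bars give the number of genes at 1 RPKM or more in each of 12 KO (red) and 9 wildtype (blue) cells, ordered by that number within genotype. The lower panel gives log2(RPKM + 1) of each member in the same cells, with white lines between maintenance, de novo, reader and demethylation genes. The KO cells at the left, with 1517 to 1891 detected genes, hold at most 1 member at 1 RPKM or more, and KO cells 2, 4, 5 and 6 at the right of that group show Uhrf1, Dnmt3a, Dnmt3b and Mbd3 together.

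Maintenance genes were sparse in both genotypes. In KO cells Dnmt1, the maintenance methyltransferase, was at 42.1 RPKM in cell 2, 9.63 RPKM in cell 5 and 16.3 RPKM in cell 11, at 0.287 RPKM in cell 6 and at 0 in the other 8. In wildtype cells it was at 15.7 RPKM in cell 17, 16.6 RPKM in cell 18, 13.2 RPKM in cell 20 and 6.06 RPKM in cell 22, at 0.233 RPKM in cell 16 and at 0 in the other 4. The groups overlap, with 3 of 12 KO cells (25.0%, interval 5.49 to 57.2%) and 4 of 9 wildtype cells (44.4%, 13.7 to 78.8%) detecting it. The difference of mean log2(RPKM + 1), KO minus wildtype, was -0.57, from 1.11 in KO to 1.68 in wildtype cells. It ran from -0.97 without KO cell 2 to -0.27 without wildtype cell 18. It was 0.66 when every cell was shifted to an equal median, which adds 1.24 to the difference of every gene alike and puts the median of the genes compared at 0.87.

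Uhrf1, the partner that brings Dnmt1 to replicated DNA, lay slightly the other way. KO cells 8 and 11 had the highest values, 77.6 and 78.1 RPKM. KO cells 2, 4, 5 and 6 were at 17.3, 5.52, 11.5 and 7.85 RPKM, and the remaining 6 KO cells were at 0. Wildtype cells 16, 20 and 22 were at 45.0, 36.9 and 10.1 RPKM, cell 18 at 0.960 RPKM and the other 5 at 0. The 2 sets of values cover each other, and the difference was 0.50, from 2.19 in KO to 1.69 in wildtype cells. It was 0.13 without KO cell 11, 0.98 without wildtype cell 16, and -0.12 without the 4 KO cells that had the most detected genes. Both partners were detected together in 5 of 21 cells, Dnmt1 without Uhrf1 in 2, Uhrf1 without Dnmt1 in 4, and neither in 10. All 3 KO cells with Dnmt1 also had Uhrf1, against 2 of 4 in wildtype.

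Of the de novo enzymes, Dnmt3a was high in wildtype cells and Dnmt3b was low in both genotypes. In KO cells Dnmt3a was at 380 RPKM in cell 4, 218 RPKM in cell 6, 182 RPKM in cell 10, 110 RPKM in cell 5 and 61.1 RPKM in cell 2. KO cells 3 and 7 were at 2.91 and 3.49 RPKM and the other 5 at 0.266 RPKM or less. In wildtype cells it was at 1086 RPKM in cell 17, 545 RPKM in cell 16, 415 RPKM in cell 22, 253 RPKM in cell 14, 252 RPKM in cell 20 and 30.6 RPKM in cell 18. Wildtype cells 15 and 21 were at 3.29 and 2.65 RPKM and cell 13 at 0.00793 RPKM. The wildtype median was 252 RPKM, so 5 of 9 wildtype cells reach this level by definition, whereas 1 of 12 KO cells did. That contrast depends on the cutoff. KO cells 6, 10, 5 and 2 fell below 252 RPKM but lay above wildtype cells 18, 15, 21 and 13. The ranges overlap from 0.00793 to 380 RPKM. The difference was -2.42, from 3.45 in KO to 5.87 in wildtype cells, and it ranged from -5.92 to -1.19 over 32 other settings.

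Dnmt3b was seen mostly in cells with many detected genes. It was at 31.0, 8.91, 8.44 and 6.47 RPKM in KO cells 2, 4, 5 and 6, the 4 cells with the most detected genes, at 24.1 RPKM in KO cell 11 and at 0.00827 RPKM or less in the other 7 KO cells. In wildtype cells it reached 36.0 RPKM in cell 16 and 1.65 RPKM in cell 18 and stayed at 0.450 RPKM or less in the rest. The difference was 0.73 (1.59 in KO, 0.86 in wildtype cells), 1.27 without wildtype cell 16, 0.42 without KO cell 2, 0.07 over cells in the range of detected genes that both genotypes share, -0.28 without the 4 KO cells above that range and -0.29 with medians over cells. All 7 cells with Dnmt3b also had Mbd3, which was present in 14 of 21 cells. Whether reads were assigned by strand is not given in the sources used here. The non-coding gene Dnmt3bos spans the Dnmt3b start, at 153648689 to 153650286 of chromosome 2 in the adult HSC table (mm10), and an antisense transcript there could not be told apart from Dnmt3b.

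Mbd3 was the reader found in most cells, and Mbd2 was found in 2, of which KO cell 10 had the highest reader value of any KO cell. Mbd3 was at 166, 150, 89.3 and 69.3 RPKM in KO cells 4, 3, 5 and 2, at 4.91 RPKM in cell 11, at 1.19 RPKM in cell 6 and at 0 in the other 6. In wildtype cells it was at 498, 446 and 165 RPKM in cells 13, 14 and 20, at 86.1, 66.9 and 62.0 RPKM in cells 22, 18 and 17, and at 2.57, 1.28 and 0.869 RPKM in cells 16, 15 and 21. No wildtype cell was at 0. The ranges overlap up to 166 RPKM, and the difference was -2.71, from 2.58 in KO to 5.29 in wildtype cells, with a range of -5.52 to -1.47 over the other settings. KO cells 10 and 12 held Mbd2 at 316 and 2.58 RPKM, both without detected Mbd3. It was detected in 0 of 9 wildtype cells, which allows a share of up to 33.3%. Its difference of 0.84 rests on KO cell 10, without which it was 0.17. It was 0.04 over cells with Xist under 1 RPKM, which leaves 5 of 12 KO and 7 of 9 wildtype cells. It was 1.58 over cells in the shared range of detected genes, and 4.69 as a ratio of mean RPKM plus 1. Mbd2 and Mbd3 are near relatives, and the treatment of reads that fit both is not given in the sources used here.

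Among the demethylation genes Tdg stood out. In KO cells it was at 19.9, 14.1, 10.6, 8.48 and 5.40 RPKM in cells 7, 11, 6, 5 and 2 and at 0 in the other 7. In wildtype cells it was at 185, 120 and 91.1 RPKM in cells 21, 18 and 16, at 30.3, 21.4 and 12.8 RPKM in cells 13, 14 and 15, at 6.92 and 1.24 RPKM in cells 20 and 22, and at 0 in cell 17. The 5 highest wildtype cells lay above every KO cell, and the other 4 fell within the KO range. Detection was 5 of 12 (41.7%, 15.2 to 72.3%) against 8 of 9 (88.9%, 51.8 to 99.7%). The difference was -2.78, from 1.48 in KO to 4.26 in wildtype cells, and ranged from -4.48 to -1.45.

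Tet2, the dioxygenase most studied in blood stem cells, was detected in 2 of 12 KO cells, at 13.5 RPKM in cell 7 and 1.95 RPKM in cell 6, and its highest value in the other KO cells was 0.921 RPKM. In wildtype it was detected in 6 of 9 cells, at 64.6, 31.2, 5.06, 3.59, 1.65 and 1.58 RPKM in cells 13, 15, 20, 18, 22 and 17. The difference of -1.53 (0.55 in KO, 2.08 in wildtype cells) kept its sign at all 32 other settings and was -0.29 after shifting to an equal median. Tet1 was at 46.7 RPKM in KO cell 2 and at 23.5, 12.0 and 4.65 RPKM in wildtype cells 14, 15 and 18, a difference of -0.75 that was -1.21 without KO cell 2, -0.34 without wildtype cell 14 and 0.48 after the shift. Tet3 reached 1 RPKM in KO cell 5 alone of its genotype, at 9.94 RPKM, and in wildtype cell 17 alone, at 12.3 RPKM. Its difference of -0.09 was -0.37 without the former, 0.31 without the latter and 1.14 after the shift. All 4 cells with Tet1 also had Tdg, as did 7 of the 8 cells with Tet2, while Tdg was detected in 13 of 21 cells. Tet1, detected in 4 of 21 cells, and Tet3, detected in 2, shared no cell, and counts this low cannot show whether they avoid each other.

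By a rule of size, 4 of the 10 members, Dnmt3a, Mbd3, Tet2 and Tdg, lay at least 1 lower in KO cells on the log2(RPKM + 1) scale, and 0 of 10 lay at least 1 higher. Over all 14833 listed genes, many of them near 0 everywhere, 10.6% were lower and 5.85% higher by that size. The median difference of the 10 members was -0.66 and that of all listed genes 0. The filter, 1 RPKM in 50% or more of the cells of 1 genotype, left 5 members. Of these, Dnmt3a and Mbd3 passed in both genotypes, Tet2 and Tdg through the wildtype cells alone and Uhrf1 through the KO cells alone. For Tet2, Tdg and Uhrf1 the direction is thus tied to the filter. The 5 had a median of -2.42, beside -0.36 for the 3867 genes that passed, of which 28% were lower and 11.4% higher by 1 or more. With the share taken over all 21 cells, Dnmt3a, Mbd3 and Tdg passed with a median of -2.71, against -0.38 for 2767 genes, of which 28% were lower and 8.38% higher.

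The scaling of the cells sets how many genes fall on each side. Shifting each cell to an equal median moved the median difference of the 3867 genes by 1.24, to 0.87, and put 5.40% of them lower and 45.3% higher by 1 or more. Of the members, Dnmt3a, Mbd3 and Tdg were then still lower by 1 or more, and Uhrf1, Dnmt3b, Mbd2 and Tet3 were higher. The shift is added to log2(RPKM + 1), so values of 0 move with it. Before it these 4 genes differed by 0.50, 0.73, 0.84 and -0.09, so their place on the higher side comes from the shift. The 45.3% also includes genes lifted in this way. Relative to the median of all genes, to which this shift adds the same amount, the classes differed by -3.01 for demethylation, -1.65 for de novo, -1.47 for readers and 0.17 for maintenance genes. A class is a sum of genes, 4 for demethylation and 2 for each other class, whereas that median is of single genes, so the measures are unlike. The demethylation sum, at -3.38 as deposited, lay beyond each of its members, of which Tdg was lowest at -2.78.

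Summed per cell, the 4 classes differed in how far they lay from each other. Demethylation genes, the sum of Tet1, Tet2, Tet3 and Tdg, were at 0.00234 to 53.2 RPKM in KO cells, with a median of 0.685 RPKM, and at 2.88 to 185 RPKM in wildtype cells, with a median of 56.1 RPKM. Every wildtype cell had at least 1 RPKM of them and 6 of 12 KO cells did. The difference of mean log2(summed RPKM + 1) was -3.38 (2.03 in KO, 5.40 in wildtype cells), and ranged from -5.16 to -1.79. De novo genes had medians of 13.9 and 252 RPKM and a difference of -2.02 (3.88 in KO, 5.90 in wildtype cells), with a range of -4.57 to -0.73. Reader genes had medians of 3.75 and 66.9 RPKM and a difference of -1.83 (3.45 in KO, 5.29 in wildtype cells), with a range of -3.88 to -0.60. Maintenance genes had medians of 2.76 and 15.7 RPKM and a difference of -0.19 (2.43 in KO, 2.62 in wildtype cells), which took either sign over the settings, from -2.71 to 1.04, and was -0.57 without KO cell 11 and 0.19 without wildtype cell 20.

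**Figure D2:**
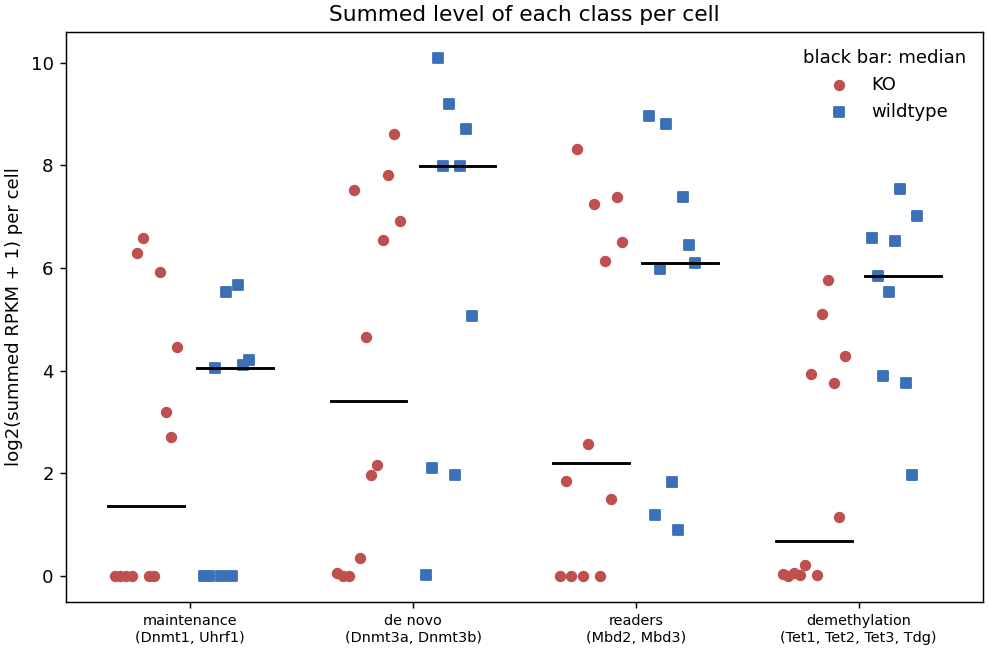
Each point is 1 cell, with log2(summed RPKM + 1) of a class on the vertical axis, KO cells as red circles and wildtype cells as blue squares, and black bars at the median of each group. All 9 wildtype cells have demethylation genes at 2.88 RPKM or more and 6 of 12 KO cells lie under 1 RPKM, whereas both genotypes have cells at 0 for maintenance genes.

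Set against each other within a cell, de novo genes most often led. They were the highest class in 4 of 12 KO and 4 of 9 wildtype cells. Readers led in 3 KO and 2 wildtype cells, demethylation genes in 1 and 3, and maintenance genes in 2 and 0. The remaining 2 KO cells, 1 and 9, had no member at 1 RPKM. De novo exceeded maintenance genes in 15 of the 17 cells with either class detected. The exceptions were KO cells 8 and 11, in which Uhrf1 gave the maintenance class 99.5% and contributed most of its 68.5% of the summed level of all members. In the 9 wildtype cells maintenance genes made up 10.4% at most. The place of the erasers in that order can be given per genotype. In wildtype cells demethylation exceeded maintenance genes in 6 of 9 cells, and in KO cells it did so in 2 of 7 cells with either class. De novo exceeded demethylation genes in 5 of 9 wildtype cells and in 7 of 8 such KO cells. These counts are descriptions of 1 sample a genotype, and the difference between them was not tested.

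**Figure D3:**
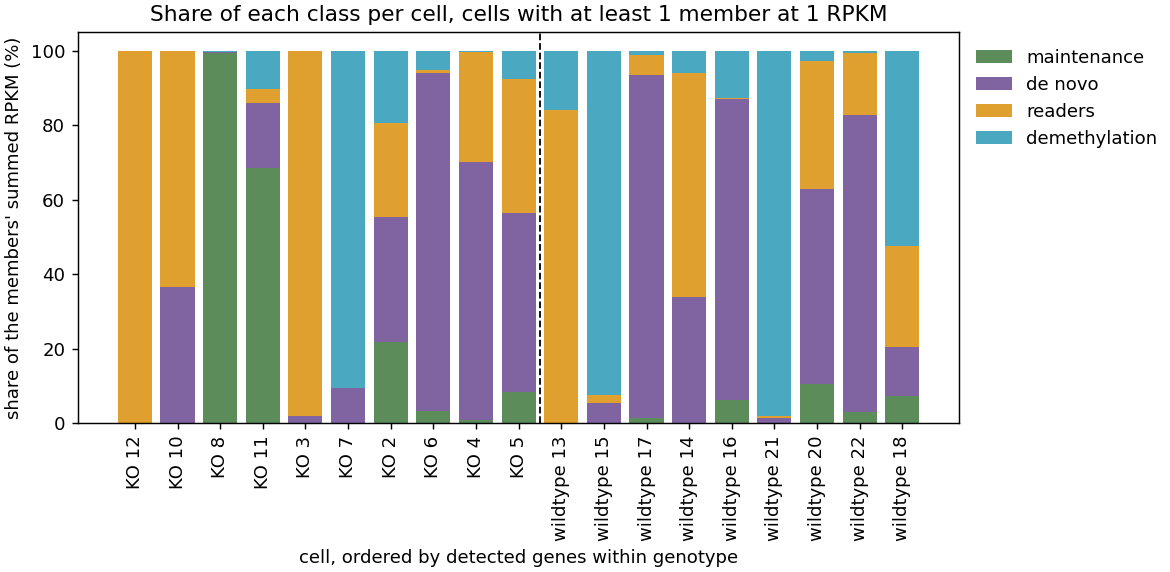
Stacked bars give the share (%) of each class in the summed RPKM of all 10 members, for the 19 cells with at least 1 member at 1 RPKM or more, ordered by detected genes within genotype. In many cells 1 class takes nearly all, such as maintenance with 99.5% in KO cell 8 and demethylation with 98.0% in wildtype cell 21.

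The number of members seen in a cell followed the number of genes seen in it. KO cells 1 and 9 had 0 members at 1517 and 1891 detected genes, and KO cells 2 and 5 had 7 each at 5994 and 8408. Over all 21 cells, which share a library method and 1 gene list, Pearson's r with log2 of detected genes was 0.82 and Spearman's rho 0.80. Without KO cells 1 and 5, the farthest from the median, r was 0.76. Within genotype r was 0.89 over 12 KO cells and 0.59 over 9 wildtype cells. The wildtype value rests on cells 13 and 18, without which it was 0.19. Levels of single genes mostly rose with detected genes too, although the level of 1 gene and a count over members are unlike measures. Over the 2767 genes seen in at least 50% of the cells, the median rho of a gene's level with detected genes was 0.36, with quartiles of 0.19 and 0.52. Of the members, only Dnmt3a, Mbd3 and Tdg are among these genes. Dnmt3a, at 0.66, lay above that range, and Mbd3 at 0.50 and Tdg at 0.33 lay within it. The other members were seen in fewer than 50% of the cells, so that range is no measure for them. Their rho was 0.64 for Dnmt3b, 0.56 for Dnmt1, 0.48 for Uhrf1, 0.31 for Tet2, 0.21 for Tet3 and 0.15 for each of Mbd2 and Tet1. These values pool the genotypes, which differed. In KO and wildtype cells rho was 0.78 and 0.20 for Dnmt3a, 0.76 and -0.08 for Mbd3, and 0.52 and 0.17 for Tdg. It was 0.73 and -0.27 for Tet2, 0.55 and 0.35 for Dnmt3b, 0.53 and -0.62 for Tet3, and 0.24 and -0.15 for Tet1. Dnmt1 (0.51 and 0.60), Uhrf1 (0.47 and 0.62) and Mbd2 (0.05 and 0.41) were higher in wildtype cells.

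**Figure D4:**
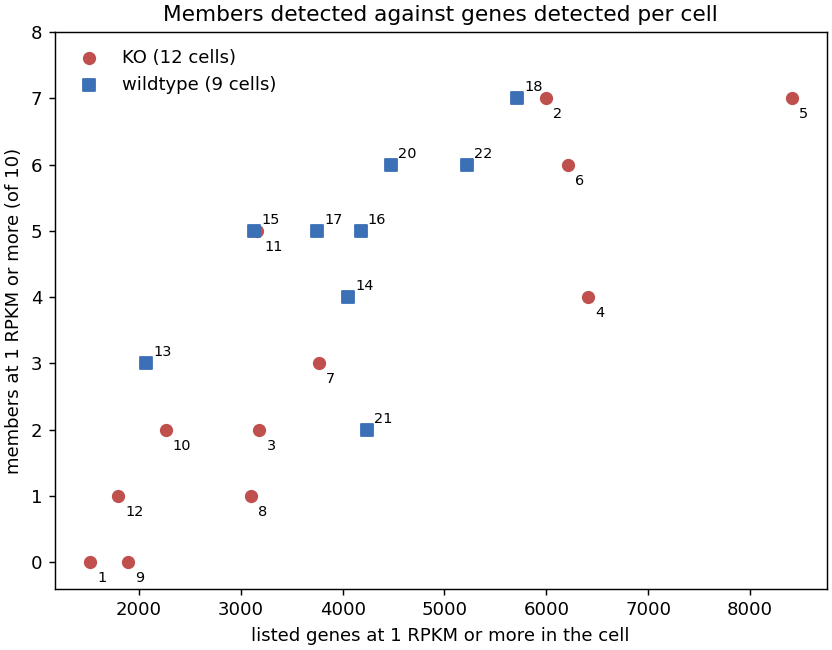
Members at 1 RPKM or more (of 10) are plotted against all listed genes at 1 RPKM or more in the same cell, with KO cells as red circles, wildtype cells as blue squares and cell numbers beside them. Cells with 1517 to 1891 genes have 0 or 1 member and cells with 5222 or more have 4 to 7, and among cells with 3101 to 3181 genes the count runs from 1 to 5.

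KO cells fall into 3 sets by detected genes: 3 below every wildtype cell (1, 9 and 12), 4 above every wildtype cell (2, 4, 5 and 6) and 5 within the wildtype range of 2067 to 5716 (3, 7, 8, 10 and 11). The 4 cells above the range all had Uhrf1, Dnmt3a, Dnmt3b and Mbd3, with a median of 6.5 members, and the 3 below had at most 1. The 5 within the range had 1 to 5 members with a median of 2, against 2 to 7 with a median of 5 in wildtype cells. Detected genes were not equal within the range. These 5 KO cells had 2260 to 3767, all below the wildtype median of 4176, so values over this range still include a gap in detected genes. Over these 5 and the 9 wildtype cells, Tdg was at a median of 0 and 21.4 RPKM, Mbd3 at 0 and 66.9 RPKM and Dnmt3a at 2.91 and 252 RPKM. Demethylation genes were at a median of 0.158 and 56.1 RPKM, with 2 of 5 KO and 9 of 9 wildtype cells at 1 RPKM or more. The class differences in this range were -3.55 for demethylation, -2.57 for de novo, -1.67 for readers and -0.05 for maintenance genes, beside a median of -0.64 over all genes compared. Without the 3 cells below the range they were -2.71, -0.73, -0.89 and 0.62, beside 0.22. With log2 of detected genes as a covariate they were -3.09, -1.32, -1.56 and 0.24, beside -0.08. That fit used 1 slope for both genotypes. In KO and wildtype cells Pearson's r with log2 of detected genes was 0.69 and -0.26 for demethylation and 0.44 and -0.13 for reader genes. For de novo genes it was 0.75 and 0.58, and for maintenance genes 0.56 and 0.58. For demethylation and reader genes 1 slope cannot follow both genotypes.

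Partner genes of the members mostly lay lower in KO cells too, as did the median gene. After the shift to an equal median the medians of all 7 lists lay above 0, from 0.16 to 1.57, beside 0.87 for all genes compared. As with the members, a gene that passed the filter through 1 genotype alone had its direction tied to the filter, so each list is also given with the share taken over all 21 cells. Of 12 NuRD components, the complex that Mbd2 and Mbd3 join, 8 were compared. Their median was -0.98, with 4 lower and 0 higher by 1 or more, the largest differences being those of Gatad2a, a scaffold subunit, at -2.36 and Chd4, the remodelling ATPase, at -2.32. Gatad2a passed through the wildtype cells alone. Over all cells 5 of the genes passed, with a median of -1.13 and 3 lower. All 9 wildtype cells and 10 of 12 KO cells had Chd4 at 1 RPKM or more. Among 6 compared partners of maintenance and targeting the median was -0.86, with 2 lower and 0 higher by that size. These were Pcna, the replication clamp, at -3.19 and Lig1, the ligase of the lagging strand, at -1.05, and Lig1 was at -1.77 without wildtype cell 15, at -0.54 without wildtype cell 13 and at 0.19 after the shift to an equal median. Over all cells 4 passed, with a median of -0.82 and the same count lower, and the median of the 6 ran from -1.31 to -0.57 when 1 cell was left out. Of 12 genes for the methyl donor, 3 were compared, with a median of -1.08 (-0.60 without wildtype cell 15), and over all cells 2 passed, with a median of -1.20. Mat2a, which makes S-adenosylmethionine, was at -1.33 and its regulatory subunit Mat2b at -1.08, and both were closer to 0 after the shift, Mat2a at -0.10 and Mat2b at 0.16.

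Of 11 base excision genes that act with Tdg, 2 were compared, Parp1, a sensor of strand breaks, at -1.22 and Mbd4, a glycosylase that also reads methyl-CpG, at 0.34 (-0.24 in the shared range). Parp1 was at -0.55 without wildtype cell 16. Mbd4 passed through the KO cells alone, and ran from -0.01 without KO cell 9 to 0.76 without wildtype cell 22. Mbd4 was the only other reader that could be compared out of 8. TET cofactors and regulators had a median of -0.56 over 5 genes, with 1 lower by 1 or more, and one of -0.28 over the 4 that passed over all cells, with 0 lower. Idh1, which makes the TET cosubstrate 2-oxoglutarate, passed through the wildtype cells alone and was at -1.05 (-0.63 without wildtype cell 22, 0.63 over cells with Xist under 1 RPKM). Gadd45g, a stress protein linked to demethylation, was at -0.60. It ran from -1.35 without wildtype cell 16 to -0.03 without wildtype cell 21, and was 0.64 without KO cells below the shared range. S phase genes had a median of -0.46 over 9 genes, with 4 lower and 1 higher by 1 or more, among them Mcm6, a helicase subunit, at -2.18. Over all cells 8 passed, with a median of -0.17, 3 lower and 1 higher. In all, 28% of the genes compared lay lower by 1 or more, the share against which these counts stand.

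Maintenance is coupled to replication, so its genes were set beside S phase genes cell by cell. The mean log2(RPKM + 1) of 16 listed S phase genes had a Pearson's r of 0.64 with that of the summed maintenance genes over 21 cells, of 0.59 with de novo, 0.37 with reader and 0.33 with demethylation genes. The S phase mean itself had an r of 0.77 with log2 of detected genes. After a linear fit on detected genes was taken from both sides, r was 0.41 for maintenance, 0.14 for de novo, 0.22 for reader and -0.02 for demethylation genes. Between the classes, the same residuals gave 0.44 for de novo with readers, 0.21 for maintenance with de novo, and -0.13 to -0.05 for the other 4 pairs. These values describe 21 cells of sparse data.

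Likeness to other genes was sought for the members detected in at least 14 of 21 cells, Dnmt3a and Mbd3. Among 2435 genes, the patterns most like Dnmt3a over the 21 cells were those of Rbm3 and Lypla1, with Spearman's rho of 0.80 and 0.78. Those most like Mbd3 were Rps19bp1 and Oaz1, at 0.84 and 0.83. Rbm3 had a rho of 0.60 with detected genes, Lypla1 0.42, Rps19bp1 0.45 and Oaz1 0.50. Each is the highest or second highest of 2435 values over both genotypes together, and no background for such a value was computed. The best match of Dnmt1, detected in 7 cells, was at 0.85, and that of Mbd2, detected in 2, at 0.69.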

How the data were processed

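RNA was measured in 22 single T1 pre-HSCs with a template-switching method, per the labels' protocols. The deposited table gives RPKM per gene and cell. Cufflinks 2.1.0 and build mm10 are named in the submitters' processing notes. For the aligner, annotation, strand setting and reads with several positions the sources used here state nothing. RPKM scales by length and by the mapped reads of a cell, so a few abundant genes lower all other values.

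The authors also deposited an adult HSC table as a signal whose unit it does not name. It lists 6910 rows and no member, so only the position of Dnmt3bos and the antisense rows described in the closing section were read from it, and 2 columns that share a cell name were not used. The 5 methylation libraries were not analysed here.

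From these values, differences of mean log2(RPKM + 1), KO minus wildtype, were computed with a pseudocount of 1 RPKM, which understates the change of low genes. The filter asked for 1 RPKM in 50% or more of the cells of 1 genotype, and a difference of 1 was a rule of size. Shares carry exact Clopper-Pearson 95% intervals, and a count of 0 an upper limit of 3 cells. The rows 250 above and below each member were matched at offsets of up to 5 rows in each cell. No shared run of at least 5 digits was found between cells in the member rows. The text names all members, 2 genes most like each member seen in at least 14 cells, and the 2 largest differences of each list. Members and lists were chosen with earlier results of these data known. The calculations were tested on simulated data. The filter over all cells together was added after the data were seen, as were the promoter motif and the housekeeping genes. Python 3.11.15, numpy 2.4.6, pandas 2.3.3 and SciPy 1.17.1 were used.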

Additional observations from a re-analysis of the deposited data

Results flagged for a closer look

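Among the 9 wildtype cells, 17 quantities were searched for a cell whose gap to its nearest neighbour exceeds 0.493 of the whole range. Chance alone gives such a gap in about 5% of groups of 9 normally distributed values. The rule was met 3 times, each for a gene that was at or near 0 in most cells, to which that rate does not apply. Dnmt3b in wildtype cell 16 stood at 5.21 on the log2(RPKM + 1) scale, where the other 8 cells were at 1.65 RPKM or less. Tet3 in wildtype cell 17 stood at 3.74, with the others at 0.364 RPKM or less. Mbd2 in wildtype cell 22 stood at 0.72, under the level counted as detected, with the others at 0.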

How the results depend on the processing

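The 32 other settings for members and classes were different pseudocounts, scalings, averages and cell sets, and the omission of each of the 21 cells. The counts of members detected and the medians over filtered genes had settings of their own. Dnmt3a, Mbd3, Tet2, Tdg, Chd4, Gatad2a, Mcm6, Pcna and the demethylation, de novo and reader sums kept their sign at every setting run for them. The count of members higher in KO by 1 or more, 0 as reported, was 1 with a pseudocount of 0.1, with medians over cells, with the ratio of mean RPKM, in the shared range of detected genes, without KO cells above that range and with detected genes as a covariate. It was 2 without KO cells below the range and with Xist under 1 RPKM, 4 at an equal median, and 0 to 1 when 1 cell was left out, the 1 arising without wildtype cell 16. The count of members lower by 1 or more was 3 to 6. At an equal median, Lig1 stood at 0.19, Parp1 at 0.015, Idh1 at 0.18, Mat2b at 0.16 and the methyl donor list at 0.16. With Xist under 1 RPKM, Idh1 stood at 0.63, Mcm6 at -0.19, and Mat2b and the methyl donor list at 0.00151. The classes in those cells were at -3.27 for demethylation, -1.48 for de novo, -1.66 for readers and 0.83 for maintenance genes, beside a median of 0.13 over all genes compared. Over all 21 cells that median was -0.36. The cells with Xist under 1 RPKM were 5 of 12 KO and 7 of 9 wildtype cells, so Xist detection was uneven between the genotypes. Its part in the differences was not tested. Adding wildtype cell 19 was run too, but its column does not line up with the gene rows, so it bears on no result and is left out of every range given. No paired analysis was possible because the KO and wildtype cells share no replicate number. Depth is unknown, so counting error per gene could not be computed.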

Other observations

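The adult HSC table, used with 25 of its cells, lists the antisense non-coding genes of both de novo enzymes. Dnmt3aos, at 3859292 to 3862244 of chromosome 12, was at 0 in all 25 cells. Dnmt3bos was above 0 in 1 cell, cell 11, at 1.62 in the unit of that table, which it does not name. The adult and embryonic tables were not compared.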
